A study of Mus musculus with 6 samples.

Results

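The serpins (serine protease inhibitors) were compared between leukaemia cells with induced loss of Chaf1b and their vehicle controls. The family was taken as every listed gene whose symbol begins with Serpin, a clade letter from a to i and a digit. A gene's symbol decided its membership, while the family itself was picked with earlier results of these data known. These were 64 of the 35869 symbols in each library. They comprised 26 genes of clade a, 27 of clade b, 3 of clade e, 2 each of clades f and i, and 1 each of clades c, d, g and h. The RefSeq table for GRCm38.p6 annotated 62 of them as protein coding and gave Serpina3h and Serpina4-ps1 as transcribed pseudogenes. Of the 64, 25 were above 0 TPM (the length-corrected share of all transcripts in a library) in at least 1 WT library, and 39 were listed at 0 in all 3 WT libraries. The test was limited to genes that reached 1 TPM in 3 or more libraries, which 12 of the 64 did.

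All libraries came from cultured mouse AML cells transformed by retroviral MLL-AF9, a human leukaemia fusion gene, that carried floxed Chaf1b alleles and the ligand-dependent recombinase CreERT2 and grew with SCF, IL6 and IL3. For the 3 KO libraries, β-estradiol was added to induce deletion, and the 3 WT libraries came from floxed, CreERT2-bearing cells given ethanol vehicle, with lysis 48 hours after induction. The ligand and the deletion cannot be told apart, because every KO library and no WT library received β-estradiol. The cells are described as clones, but the labels do not say whether replicates were separate clones or cultures, so the p-values rest on a spread among libraries that may be technical alone. Chaf1b, the targeted subunit of the histone chaperone CAF-1, was at 17.7, 14.4 and 14.2 TPM in KO replicates 1 to 3, against 48.6, 49.0 and 50.6 TPM in WT replicates 1 to 3 (log2 fold change −1.62, SE 0.09, limma adjusted p = 0.0058). Both groups expressed the blood cell genes Ptprc (25.6 to 27.4 TPM in KO, 26.4 to 29.7 TPM in WT) and Itgam (157.9 to 207.2 TPM in KO, 133.3 to 231.7 TPM in WT), while Csf1r, the receptor of the monocyte lineage, stayed between 0.4 and 1.4 TPM. KO replicate 1 and WT replicate 1 stood apart from the other 2 libraries of their groups. Pearson's r of log2(TPM + 1) over 13575 tested genes, which are not independent replicates, was 0.998 between replicates 2 and 3 of KO and also of WT, but 0.991 and 0.992 between KO replicate 1 and the other KO libraries, and 0.984 and 0.986 between WT replicate 1 and the other WT libraries. KO replicate 1 gave 0.982 to 0.986 with the WT libraries, where KO replicates 2 and 3 gave 0.961 to 0.967. The header of WT replicate 1 alone carries a note on a replacement.

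Most serpins are suicide inhibitors. A protease cleaves the exposed reactive centre loop of the serpin, the loop inserts into the body of the molecule, and the protease is trapped in a covalent complex. Clade a holds secreted proteins such as the α1-antitrypsins and the antichymotrypsin-like genes, while clade b holds proteins that mostly act inside cells and include the inhibitors of the neutrophil granule proteases. Some members do not inhibit proteases, among them hormone carriers, the collagen chaperone encoded by Serpinh1 and the secreted factor encoded by Serpinf1. Mice carry expanded sets of Serpina1, Serpina3, Serpinb6 and Serpinb9 genes where humans have single genes.

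The serpin messages were dominated by Serpinb1a, an inhibitor of neutrophil elastase, proteinase 3 and cathepsin G. The summed serpin level was 736.4, 984.6 and 939.4 TPM in KO replicates 1 to 3, against 672.5, 597.2 and 596.3 TPM in WT replicates 1 to 3. Serpinb1a made up 61.0%, 53.0% and 56.1% of that sum in KO, against 67.3%, 74.2% and 75% in WT. Every KO sum lay above every WT sum, and every KO share of Serpinb1a lay below every WT share. With Serpinb1a, Serpina3g and Serpinf1 left out, the other 61 serpins summed to 48.0, 110.4 and 93.4 TPM in KO, against 23.2, 16.6 and 14.4 TPM in WT. The number of serpins above 0 was 36, 40 and 38 in KO and 23, 21 and 21 in WT. All listed genes above 0 also numbered more in KO: 19767, 20998 and 20700, against 18041, 18044 and 18070 in WT.

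**Figure D1:**
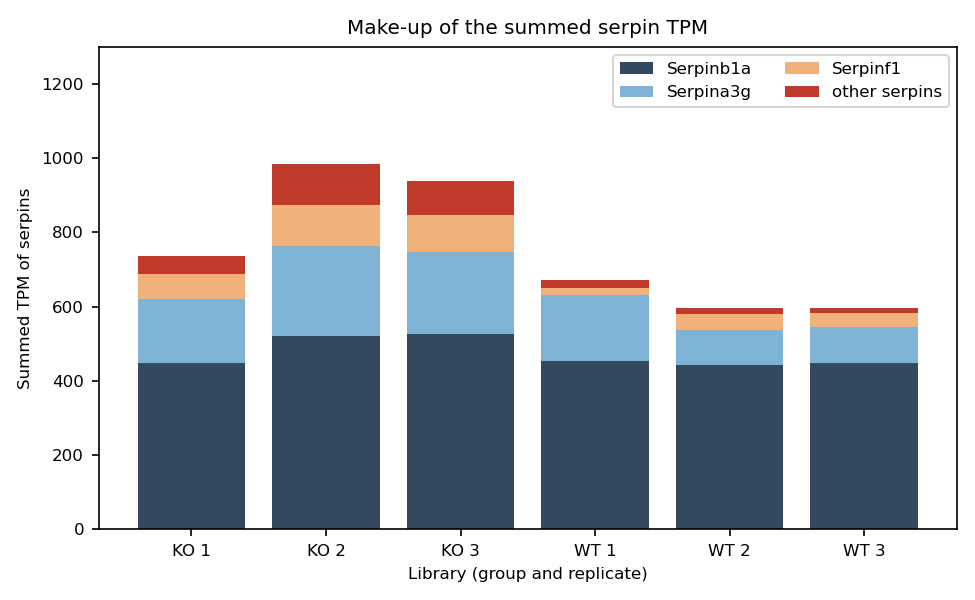
Summed TPM of all 64 serpins in each library, stacked by Serpinb1a, Serpina3g, Serpinf1 and the other 61 members together. The KO sums lie between 736.4 and 984.6 TPM and the WT sums between 596.3 and 672.5 TPM, with the layer of the other members at most 23.2 TPM in WT and at least 48.0 TPM in KO.

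Of the 12 tested serpins, 7 rose in KO and 0 fell at a limma adjusted p under 0.05 (Benjamini-Hochberg over 13575 genes; 9 had an unadjusted p under 0.05, all higher in KO). Of all tested genes, 12.9% were called higher and 6.11% lower. The 7 were Serpinb9g, Serpinb2, Serpina1e, Serpina3f, Serpinb9f, Serpinf1 and Serpinb6a. The median log2 fold change of the 12 was 1.16, beside 0.01 for all tested genes; over the 7 with at least 1 TPM in all 3 WT libraries it was 0.55, beside −0.01 for all tested genes with such WT levels. Weakly expressed genes were called higher more often than others: the share was 19.0% where the mean over all libraries was 1 to 10 TPM. Serpinb2, Serpina1e, Serpina3f and Serpinb9f had fewer than 3 WT libraries at 1 TPM and passed the filter through their KO values, so that their pass and their rise are not separate facts. The other 3 called genes were among the 7 tested serpins with at least 1 TPM in all 3 WT libraries. Of all 12481 tested genes with such WT levels 1227 (9.83%) were called higher, against 1745 of all 13575. The remaining tested genes were thus called higher more often. For Serpinb2, Serpina1e, Serpina3f and Serpinb9f, 12.9% and 19.0% are therefore not the matching shares and are too low. Of the 12, 8 had every KO value above every WT value and 0 every KO value below; over all tested genes these shares were 23.4% and 19.5%. The calls rested on replicates 2 and 3: without KO replicate 2 only Serpina1e was called, and without KO replicate 3, WT replicate 2 or WT replicate 3 limma called 0 serpins (7 of 12 had an unadjusted p under 0.05 in each of these 3 fits) and 0, 25 and 15 genes in all. Without KO replicate 1 it called 9 serpins, without WT replicate 1 it called 8, and without both it called 10, with 0 lower each time. Calls rose over all 13575 genes as well: 2063, 2927 and 3859 were called higher in these 3 fits, against 1745 with all libraries. In all 7 called genes the lowest KO value was that of KO replicate 1, as in 90.2% of all genes called higher.

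**Figure D2:**
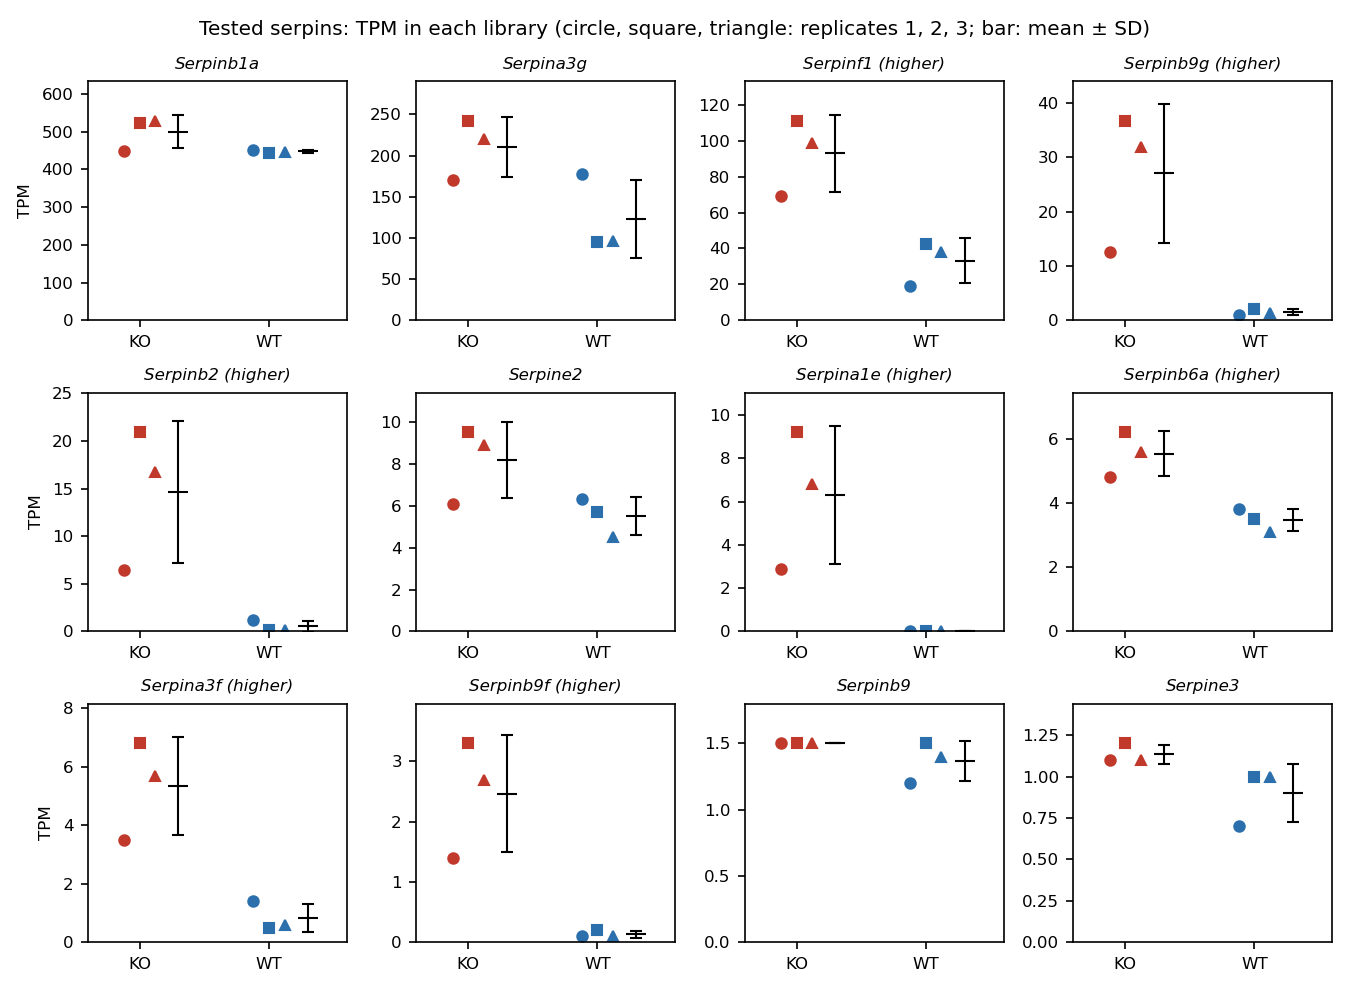
TPM of the 12 tested serpins in every library, with a panel of its own scale for each gene; symbols mark replicates 1, 2 and 3 and the black bar is the mean ± SD of 3 libraries. The KO values of the 7 genes marked as higher, and those of Serpine3, lie above all WT values, and KO replicate 1 is the lowest KO library in each of the 7.

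Among the clade b serpins, the inhibitor with the highest level did not pass the test. Serpinb1a (chromosome 13, 32842092 to 32853206 in GRCm38.p6, the build of all positions given here) was at 448.9, 521.9 and 527.2 TPM in KO replicates 1 to 3, against 452.5, 443.2 and 447.0 TPM in WT replicates 1 to 3. The WT values lay close together, KO replicate 1 fell among them, and KO replicates 2 and 3 lay above. The difference on the log2 scale was 0.15 (SE 0.07, limma adjusted p = 0.15). Without KO replicate 1 it was called higher by 0.23 (adjusted p = 0.012). Its near relatives were listed far lower: Serpinb1b was at 0.1 TPM in all 3 KO libraries and at most 0.1 TPM in WT, and Serpinb1c was at 0.2 to 0.5 TPM in KO and at 0 in WT.

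Serpinb9g had the largest rise of the tested serpins on the log2(TPM + 1) scale. Serpinb9g (chromosome 13, 33484790 to 33496002), one of the expanded mouse relatives of the granzyme B inhibitor Serpinb9, was at 12.6, 36.6 and 31.9 TPM in KO replicates 1 to 3, against 1.0, 2.1 and 1.4 TPM in WT replicates 1 to 3. Every KO library was above every WT library, and KO replicate 1 reached 36.8% of the mean of KO replicates 2 and 3. The mean was 27 ± 12.7 TPM in KO and 1.5 ± 0.557 TPM in WT (SD, n = 3 each), a ratio of 18.0, with a log2 fold change of 3.38 (SE 0.40, limma adjusted p = 0.012). Of the 13575 tested genes, 28 had a larger one. Serpinb9f, another copy in this run of genes, was at 1.4, 3.3 and 2.7 TPM in KO replicates 1 to 3, against 0.1, 0.2 and 0.1 TPM in WT replicates 1 to 3. Again no value overlapped, with a log2 fold change of 1.57 (SE 0.22, limma adjusted p = 0.014). Serpinb9e, which lies next to Serpinb9f, was at 0.9, 2.5 and 1.7 TPM in KO against 0, 0.1 and 0.1 TPM in WT, and was not tested because 2 libraries reached 1 TPM. Serpinb9 itself, which protects cytotoxic cells from their own granzyme B, was at 1.5 TPM in each KO library, against 1.2, 1.5 and 1.4 TPM in WT replicates 1 to 3 (log2 fold change 0.08, SE 0.09, limma adjusted p = 0.53, and −0.28, adjusted p = 0.086, after quantile normalization). Gzmb, the granzyme it inhibits, was at 0 in 5 libraries and at 0.1 TPM in KO replicate 3.

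The Serpinb9 copies share sequence, and how reads were divided among them is not known. Of the 100-base windows (the read length in the labels) along the longest GENCODE M21 transcript of Serpinb9f, 52.3% occur in a transcript of another gene, mostly Gm11397 (44.0%); for Serpinb9g the shares are 38.5% and 34.0%. Gm11397 lies between them and is an older symbol of Serpinb9h in the RefSeq table, but the files do not list it under a Serpin symbol; it was looked up after the values were seen. It was at 3.0, 7.6 and 6.8 TPM in KO replicates 1 to 3, against 0.2, 0.5 and 0.2 TPM in WT replicates 1 to 3 (log2 fold change 2.32, SE 0.30, limma adjusted p = 0.013). Gm11397 passed the filter through its KO values, so that its pass and its rise are not separate facts. Because of the shared windows, its values may not be separate from those of Serpinb9f and Serpinb9g. The 250 bases upstream of the annotated starts of Serpinb9g (chr13:33484540-33484789) and Serpinb9f (chr13:33323827-33324076), both on the + strand of GRCm38.p6, are shown from the RefSeq promoter table because these neighbours moved together. They are identical at 228 of 239 aligned bases (95.4%), and capitals mark the bases that differ.
Serpinb9g: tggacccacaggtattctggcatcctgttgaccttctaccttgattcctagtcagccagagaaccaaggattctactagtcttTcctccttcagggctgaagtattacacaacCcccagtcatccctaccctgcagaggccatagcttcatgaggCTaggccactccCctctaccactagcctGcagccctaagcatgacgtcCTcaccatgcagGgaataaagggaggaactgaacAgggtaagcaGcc
Serpinb9f: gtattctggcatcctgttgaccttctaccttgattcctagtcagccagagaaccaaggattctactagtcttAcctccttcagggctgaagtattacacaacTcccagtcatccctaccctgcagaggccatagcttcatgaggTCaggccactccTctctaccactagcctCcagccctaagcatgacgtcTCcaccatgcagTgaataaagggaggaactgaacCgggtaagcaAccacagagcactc

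Serpinb2 (chromosome 1, 107500892 to 107525600), known as plasminogen activator inhibitor type 2 and as an inducible gene of macrophages, was at 6.4, 20.9 and 16.7 TPM in KO replicates 1 to 3, against 1.2, 0.2 and 0.2 TPM in WT replicates 1 to 3. Here the replicates 1 approached each other: WT replicate 1 was 6.0 times the mean of the other 2 WT libraries, and KO replicate 1 was 34.0% of the mean of the other 2 KO libraries. Serpinb2 averaged 14.7 ± 7.46 TPM in KO and 0.533 ± 0.577 TPM in WT (SD, n = 3 each), a ratio of 27.5, with a log2 fold change of 3.27 (SE 0.45, limma adjusted p = 0.014). Its next neighbour Serpinb10, which overlaps it on the same strand in GENCODE M21, though not in the RefSeq positions, and shares 5.23% of its windows with it, was at 0.3, 1.2 and 1.1 TPM in KO against 0.1, 0.1 and 0 TPM in WT.

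Serpinb6a (chromosome 13, 33917918 to 34002794), a relative of the human inhibitor of cathepsin G SERPINB6, rose least among the called genes. It was at 4.8, 6.2 and 5.6 TPM in KO replicates 1 to 3, against 3.8, 3.5 and 3.1 TPM in WT replicates 1 to 3. The groups did not overlap, the ratio of means was 1.6, with a log2 fold change of 0.55 (SE 0.11, limma adjusted p = 0.025). Of the other Serpinb6 copies, Serpinb6b was at 0.2 to 0.5 TPM in KO and at most 0.1 TPM in WT, Serpinb6d was at 0.4 to 0.8 TPM in KO and at 0.1 to 0.2 TPM in WT, and Serpinb6c and Serpinb6e were at 0 in all 6 libraries. Nqo2 and Ripk1 overlap Serpinb6a on the opposite strand. Neither was called (limma adjusted p = 0.56 for Nqo2 and 0.11 for Ripk1), and no 100-base window of the longest Serpinb6a transcript occurs in another gene's transcript.

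In clade a, the highest level among the α1-antitrypsin copies was that of Serpina1e in KO. Serpina1e (chromosome 12, 103946931 to 103956897) encodes one of the mouse α1-antitrypsins, secreted chiefly by hepatocytes and known as inhibitors of neutrophil elastase. It was at 2.9, 9.2 and 6.8 TPM in KO replicates 1 to 3 and was listed at 0 in all 3 WT libraries. No fold can be given; on the log2(TPM + 1) scale the difference was 2.76 (SE 0.34, limma adjusted p = 0.012), a size that depends on the pseudocount. It was the only serpin at 0 in every WT library that averaged at least 1 TPM in KO, as did 0.380% of all genes at 0 in every WT library. The other copies stayed near 0: Serpina1a, Serpina1b, Serpina1c and Serpina1d were at 0 in all WT libraries, and their KO means were 0.0667, 0.167, 0.2 and 0.167 TPM beside 6.3 ± 3.18 TPM (SD, n = 3) for Serpina1e. Of the windows along the longest Serpina1e transcript, 14.8% occur in another gene's transcript, against 69.3% for Serpina1c and 49.9% for Serpina1a, so the values of Serpina1c and Serpina1a are less certain.

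Hepatocyte genes were examined beside the α1-antitrypsins. Of 8 hepatocyte markers, Ahsg and Fgb were at 0 in all 6 libraries, Alb was at 0.1 TPM in each KO library and 0 in each WT library, and Ttr was above 0 in 1 library at 0.1 TPM. The summed level of the 8 was 83.2 to 128.5 TPM in KO and 47.3 to 58.4 TPM in WT, of which the iron carrier gene Trf made up 57.7 to 101.5 TPM in KO and 27.5 to 38.4 TPM in WT. Of the 3 tested markers, Trf and the transcription factor gene Hnf4a were called higher (log2 fold change 1.34 and 0.54, limma adjusted p = 0.019 and 0.014). The part of hepatocyte-like RNA in the Serpina1e value was not tested. In bulk RNA, fewer cells of a type and less RNA per cell cannot be told apart.

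The upstream letters of the α1-antitrypsin copies are close. The 250 bases before the annotated starts of Serpina1e (chr12:103956898-103957147) and Serpina1b (chr12:103738190-103738439), both on the − strand of GRCm38.p6, are shown from the same table because the genes differ in level and hardly in these letters. Over 198 aligned bases 194 are identical (98.0%), with 2 further bases in a gap. Capitals mark the bases that differ or lie in the gap. The annotated start of Serpina1e lies further downstream in the shared stretch than that of Serpina1b.
Serpina1e: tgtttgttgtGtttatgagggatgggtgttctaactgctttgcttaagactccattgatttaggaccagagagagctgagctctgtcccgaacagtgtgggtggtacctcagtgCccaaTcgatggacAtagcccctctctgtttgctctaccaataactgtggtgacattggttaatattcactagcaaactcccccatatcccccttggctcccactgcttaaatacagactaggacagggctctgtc
Serpina1b: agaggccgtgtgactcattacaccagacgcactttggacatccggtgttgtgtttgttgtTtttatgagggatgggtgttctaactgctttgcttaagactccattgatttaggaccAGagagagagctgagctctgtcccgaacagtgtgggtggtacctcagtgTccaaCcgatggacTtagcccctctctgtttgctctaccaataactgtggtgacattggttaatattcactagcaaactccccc

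Serpina3g, the second serpin by level, encodes a mouse intracellular relative of α1-antichymotrypsin that can inhibit lysosomal cathepsins. Serpina3g (chromosome 12, 104236147 to 104241939) was at 170.5, 241.6 and 219.9 TPM in KO replicates 1 to 3, against 177.7, 95.0 and 96.6 TPM in WT replicates 1 to 3. The groups overlapped through WT replicate 1, which exceeded KO replicate 1. The log2 fold change of 0.82 (SE 0.27, limma adjusted p = 0.075) did not pass the threshold with all libraries. Without WT replicate 1 it was 1.11 (adjusted p = 0.019), without WT replicate 1 and KO replicate 1 it was 1.26 (0.0013), and the 15 alternatives gave adjusted p-values of 0.0013 to 0.24. Mature granulocyte markers, like Serpina3g, were higher in WT replicate 1 than in the other WT libraries. The 4 genes Ly6g, Cxcr2, Mmp9 and Ngp summed to 55.2 to 113.9 TPM in KO, and to 207.8, 17.8 and 25.9 TPM in WT replicates 1 to 3. The part of such cells in the Serpina3g value was not tested.

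Serpina3f (chromosome 12, 104214544 to 104221129), the neighbour of Serpina3g, was at 3.5, 6.8 and 5.7 TPM in KO replicates 1 to 3, against 1.4, 0.5 and 0.6 TPM in WT replicates 1 to 3. All KO values lay above all WT values, with a ratio of means of 6.4 and a log2 fold change of 1.78 (SE 0.26, limma adjusted p = 0.015). The transcribed pseudogene Serpina3h, on the other side of Serpina3g, was at 0.7, 1.5 and 1.4 TPM in KO against 0.3, 0.2 and 0.2 TPM in WT and was not tested. Serpina3i and Serpina3n did not exceed 0.1 TPM, and Serpina3b was at 0.3, 0.8 and 0.7 TPM in KO and at 0 in WT. Serpina3a, Serpina3c, Serpina3j, Serpina3k and Serpina3m were at 0 in all 6 libraries. At most 4.64% of the windows of Serpina3f, Serpina3g and Serpina3h occur in another gene's transcript.

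Promoter letters were searched on both strands for TTCNNNGAA, the form of a GAS element bound by STAT factors, for GAAANNGAA, the core of an interferon-stimulated response element, and for a perfect palindromic oestrogen response element. RefSeq windows (250 bases before to 50 after a start) exist for 53 of the 64 serpins, 62 windows in all. TTCNNNGAA was in 11 of the 62 windows (17.7%), which belong to 8 of the 53 genes, and in 8.3% of all 32851 windows. Serpinb2, Serpina11 and Serpina3f count more than once here, because their overlapping windows hold the same site. GAAANNGAA was in 10 windows (16.1%), also of 8 genes, and in 8.56% of all windows. The oestrogen response element was in none of the serpin windows and in 0.07% of all windows. Of the 7 called genes 3 (Serpina3f, Serpinb2 and Serpinb6a) hold the first motif and 2 (Serpina3f and Serpinb6a) the second. The 250 upstream bases of Serpina3f (chr12:104214294-104214543) and Serpina3g (chr12:104235897-104236146), both on the + strand of GRCm38.p6, are shown because both hold the first motif. In Serpina3f the match TTCCTAGAA begins 121 bases before the annotated start and overlaps a match of the second motif, TTCTATTTC on this strand, that begins 127 bases before it. In Serpina3g the match TTCCCAGAA begins 33 bases before the annotated start. The pair is identical at 126 of 152 aligned bases (82.9%), and capitals again mark differing bases and gaps. A match of letters is a description and not a binding site.
Serpina3f: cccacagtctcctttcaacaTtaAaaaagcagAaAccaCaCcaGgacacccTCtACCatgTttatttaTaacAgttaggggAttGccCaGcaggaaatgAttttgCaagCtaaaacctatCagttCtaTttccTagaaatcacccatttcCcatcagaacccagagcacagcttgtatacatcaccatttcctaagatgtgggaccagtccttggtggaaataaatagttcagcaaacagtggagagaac
Serpina3g: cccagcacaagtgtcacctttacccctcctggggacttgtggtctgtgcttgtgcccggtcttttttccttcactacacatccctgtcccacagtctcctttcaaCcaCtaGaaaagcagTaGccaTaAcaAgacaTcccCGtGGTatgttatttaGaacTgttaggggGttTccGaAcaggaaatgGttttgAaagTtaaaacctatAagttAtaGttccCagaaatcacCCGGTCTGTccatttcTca

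Outside clades a and b, Serpinf1 was the gene with the highest level. Serpinf1 (chromosome 11, 75410029 to 75422623) encodes pigment epithelium-derived factor, a secreted serpin that does not inhibit proteases and is known for restraining blood vessel growth. It was at 69.0, 110.7 and 98.9 TPM in KO replicates 1 to 3, against 19.1, 42.4 and 38.3 TPM in WT replicates 1 to 3. The groups did not overlap, and the replicate 1 library was the lowest of each group. The mean was 92.9 ± 21.5 TPM in KO and 33.3 ± 12.4 TPM in WT (SD, n = 3 each), a ratio of 2.79, with a log2 fold change of 1.5 (SE 0.32, limma adjusted p = 0.030). Its neighbour Serpinf2, which encodes the plasmin inhibitor α2-antiplasmin, was at 0.2 to 0.4 TPM in KO and at 0 to 0.2 TPM in WT.

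The clade e genes, which encode inhibitors of plasminogen activators and thrombin, gave no call. Serpine2, protease nexin-1, was at 6.1, 9.5 and 8.9 TPM in KO replicates 1 to 3, against 6.3, 5.7 and 4.5 TPM in WT replicates 1 to 3, and the groups overlapped (log2 fold change 0.49, SE 0.18, limma adjusted p = 0.10). It was called without KO replicate 1 (0.66, adjusted p = 0.025). Serpine3 was at 1.1, 1.2 and 1.1 TPM in KO against 0.7, 1.0 and 1.0 TPM in WT, with no overlap and no call (log2 fold change 0.17, SE 0.10, limma adjusted p = 0.27, and −0.29, adjusted p = 0.088, after quantile normalization). For the called and for the other tested serpins, the exact two-sided permutation test of 3 against 3 libraries cannot go below 0.1, and it gave p = 0.1 for each of the 7 called genes and for Serpine3.

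The plasma serpins of other clades were at or near 0. Serpinc1, antithrombin, and Serpind1, heparin cofactor II, were at 0.1 to 0.2 TPM in every library, and 58.4% of the Serpinc1 windows occur in Zbtb37, which overlaps it on the opposite strand. Serping1, the C1 inhibitor, was at 0 in all 6 libraries. Serpinh1, the collagen chaperone, was at 0.1 TPM in KO replicates 2 and 3 and at 0 elsewhere, with fibroblast markers summing to 3.1 to 4.9 TPM in KO and 1.1 to 1.5 TPM in WT and Dcn and Lum at 0 in all 6 libraries. Among these markers the collagen gene Col1a1 was called higher (1.4, 2.8 and 2.2 TPM in KO, 0.6, 0.2 and 0.3 TPM in WT; log2 fold change 1.18, limma adjusted p = 0.018), and Col1a2 was at 0.1 to 0.4 TPM in KO and at 0 in WT. Col1a1 reached 1 TPM in no WT library and passed the filter through its KO values. Serpini1, neuroserpin, was at 0.1 to 0.5 TPM in KO and at 0.1 to 0.2 TPM in WT, and Serpini2 was at 0.1 to 0.2 TPM in KO and at 0 in WT. The hormone carriers Serpina6 and Serpina7 were at 0 in all 6 libraries.

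For the 39 serpins at 0 in every WT library the direction is fixed by how they were set apart, so their count is a description. Serpina1e was the only one of them that entered the fit. Of these, 22 were at 0 in all 6 libraries, 11 of clade a, 10 of clade b and Serping1. The remaining 17 were above 0 in at least 1 KO library, and 10 of them were above 0 in all 3. These 10 were 7 of clade a (Serpina1b, Serpina1c, Serpina1e, Serpina12, Serpina16, Serpina3b and Serpina3i), Serpinb8 and Serpinb1c of clade b, and Serpini2. They were 25.6% of the 39, while 5.85% of all genes at 0 in every WT library were above 0 in all 3 KO libraries. Among those above 0 in at least 1 KO library, the serpins were 10 of 17, beside 28.6% of all such genes. Apart from Serpina1e, the highest was Serpina12, the adipose tissue factor vaspin, at 0.4, 1.2 and 1.1 TPM. Values are rounded to 1 decimal, the depth is unknown, and a value of 0.1 TPM is the smallest listed. When at least 0.3 TPM was asked of every KO library, 3 of the 10 were left. Genes that every cell uses were not at 0: Actb was at 2659.9 to 2836.8 TPM in KO and 2831.8 to 3018.6 TPM in WT.

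Among the 25 serpins above 0 in at least 1 WT library, 14 (56.0%) had every KO value above every WT value and 0 had every KO value below. For all genes above 0 in at least 1 WT library these shares were 22.0% above and 13.8% below. By clade the 14 were 3 of 4 in clade a, 9 of 13 in clade b, 1 of 3 in clade e and 1 of 2 in clade f. The only serpin above 0 in WT and at 0 in every KO library was Serpinb9b, at 0.1 TPM in WT replicates 1 and 3. Of the 30 members above 0 in some library but not tested, 16 were without overlap, each with KO higher and 9 of them at 0 in all WT libraries, where no other direction is possible; over all genes above 0 in some library but not tested, 22.4% had every KO value above every WT value. None of the 30 averaged more than 1.7 TPM in KO.

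**Figure D3:**
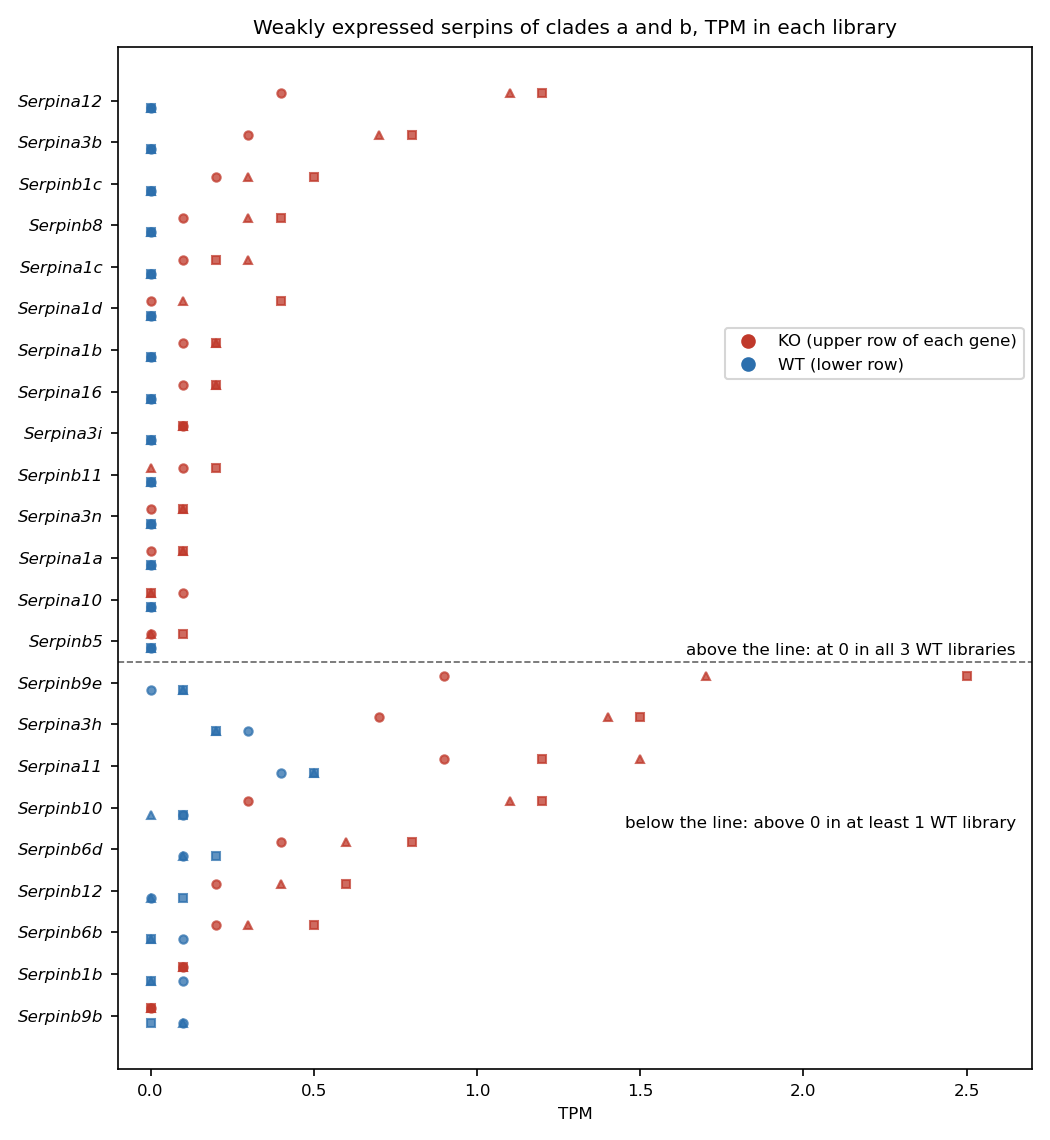
TPM of the 23 serpins of clades a and b that were above 0 in at least 1 library and not tested; red KO values are drawn above blue WT values, symbols mark replicates 1, 2 and 3, and the dashed line separates members at 0 in all WT libraries from the others. KO values of Serpinb9e, Serpina3h, Serpina11, Serpinb10 and Serpina12 reach 1.2 to 2.5 TPM, above all their WT values.

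The gene clusters held called members beside members at 0. The clade b cluster of chromosome 1 (106861175 to 107608978) holds 12 serpins: 1 tested and called, 6 at 0 in all libraries, and 4 with every KO value above every WT value. The clade a cluster of chromosome 12 (103616675 to 104414334) holds 25: 3 tested, 2 called, 10 at 0 in all libraries and 10 without overlap. The clade b cluster of chromosome 13 (32842092 to 34002794) holds 15: 5 tested, 3 called, 4 at 0 in all libraries and 7 without overlap. In the chromosome 13 cluster Serpinb9e, Serpinb9f and Serpinb9g lie side by side among the listed serpins, while Serpinb9c and Serpinb9d, next to Serpinb9e, were at 0 in all libraries. Over all tested genes 12.9% were called higher. Every KO value lay above every WT value in 22.0% of all genes above 0 in at least 1 WT library. The share was 22.4% among all genes above 0 in some library but not tested. Of the members without overlap, 1 on chromosome 1, 7 on chromosome 12 and 1 on chromosome 13 were at 0 in all WT libraries. For these no other direction is possible. By RefSeq symbol, the chromosome 13 cluster also holds 2 other tested genes, of which 1 (Gm6093) was called higher and Nqo2 was not. Gm11397, which lies between Serpinb9f and Serpinb9g, was also called higher, having passed the filter through its KO values. It has no RefSeq row under that symbol and is outside this count. Within 500000 bases of a cluster's ends, 5 genes were tested at each cluster. Of these, 1 was called higher and 1 lower at chromosome 1, 0 and 1 at chromosome 12, and 1 and 0 at chromosome 13. Over all tested genes 6.11% were called lower, beside the 12.9% called higher. With 5 genes at each cluster, no direction is read from these counts.

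**Figure D4:**
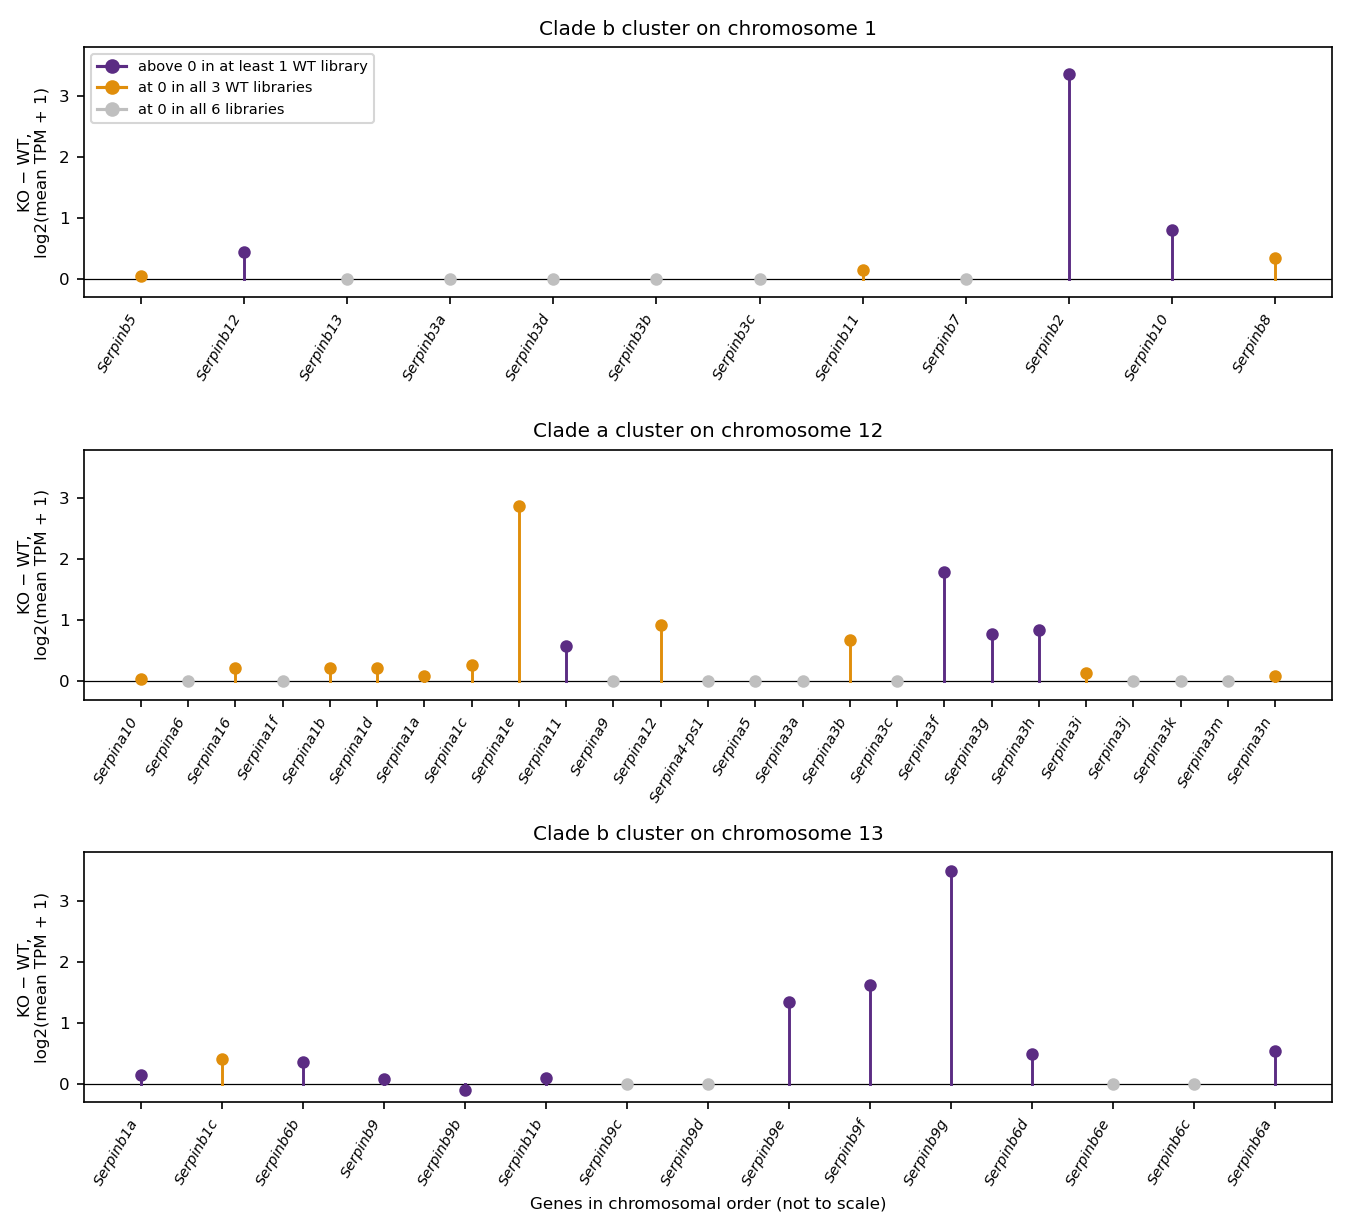
Difference KO minus WT of log2(mean TPM + 1) for each serpin of the 3 gene clusters, in chromosomal order and not to scale; purple members were above 0 in at least 1 WT library, orange ones at 0 in all 3 WT libraries and grey ones at 0 in all 6 libraries. The tallest stems are Serpinb2 on chromosome 1, Serpina1e on chromosome 12 and Serpinb9g on chromosome 13, with many members at or near 0 in each cluster.

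Proteases, serpin receptors and cofactors, other protease inhibitors, and cytokine and acute phase genes were examined as 5 lists of 120 listed genes. Of these 72 were tested, and 24 were higher and 0 lower in KO, beside 12.9% higher and 6.11% lower of all tested genes. Of the 24, Plau, Lrp1, Tfpi2 and Il1b had fewer than 3 WT libraries at 1 TPM and passed the filter through their KO values. Their pass and their rise are not separate facts, and for them 12.9% is not the matching share and is too low. Among 16 tested genes of the list of serine proteases and relatives, which also holds Cpa3 and the growth factor gene Hgf, 9 were higher (median log2 fold change 0.55). Plau, the urokinase that the Serpinb2 protein inhibits, was at 4.5, 9.5 and 8.4 TPM in KO replicates 1 to 3, against 1.0, 0.9 and 1.0 TPM in WT replicates 1 to 3 (log2 fold change 2.05, SE 0.24, limma adjusted p = 0.012). Elane, the neutrophil elastase gene, was at 2600.7, 3351.5 and 3532.9 TPM in KO, against 1151.9, 1362.8 and 1562.3 TPM in WT (1.22, SE 0.15, adjusted p = 0.013). Prtn3, the proteinase 3 gene, rose by 0.52 and the basophil protease gene Mcpt8 by 2.03 on the log2 scale. Ctsg, cathepsin G, named after its values were seen because Serpinb1a inhibits its product, was at 3439.7 to 3999.2 TPM in KO and 2891.6 to 3114.4 TPM in WT (log2 fold change 0.30, SE 0.06, limma adjusted p = 0.030). Elane, Prtn3 and Ctsg stood at higher TPM than Serpinb1a in every library of both groups. Mcpt8 is also 1 of 5 basophil and mast cell markers, which summed to 52.5 to 106.2 TPM in KO and 17 to 22.1 TPM in WT, nearly all of it Mcpt8. The other 4 summed to 2.4 to 3.4 TPM in KO and 1.0 to 1.6 TPM in WT; Ms4a2 was called higher, and Tpsb2 and Fcer1a were at 0 in all 6 libraries. Cpa3, the mast cell carboxypeptidase gene, was at 0.5, 1.3 and 1.2 TPM in KO and 1.3, 1.1 and 0.6 TPM in WT (log2 fold change −0.01, limma adjusted p = 0.98).

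In the other lists the called genes were all higher in KO, but most tested members were not called. Of all tested genes 12.9% were called higher, and of those with a mean of 1 to 10 TPM 19.0%. Of 12 tested cysteine and aspartic proteases and caspases 3 were higher (median 0.14), among them the cathepsin gene Ctsh by 1.17 and the inflammatory caspase gene Casp4 by 0.47 on the log2 scale. Of 13 receptors and cofactors 4 were higher (median 0.14). Thbd, thrombomodulin, was at 58.5, 91.8 and 82.6 TPM in KO, against 28.7, 24.0 and 26.1 TPM in WT (log2 fold change 1.51, SE 0.17, limma adjusted p = 0.012). Lrp1, the receptor that clears serpin and protease complexes, was at 2.7, 5.9 and 5.2 TPM in KO, against 1.0, 0.6 and 0.6 TPM in WT (1.65, SE 0.25, adjusted p = 0.015). The heparan sulphate proteoglycan gene Gpc1 rose by 0.52. Of 16 other protease inhibitors 3 were higher (median 0.60): Wfdc21, of the whey acidic protein family, by 3.12, Tfpi2, a Kunitz-type inhibitor, by 1.48 and Spink2, a Kazal-type inhibitor, by 1.26. Slpi, the secretory leukocyte protease inhibitor, averaged 1270 ± 206 TPM in KO and 901 ± 183 TPM in WT (SD, n = 3 each; limma adjusted p = 0.089). Of 15 cytokine and acute phase genes 5 were higher (median 0.24), among them Il1b by 1.99, Socs1 by 0.42, Cebpd by 0.28 and Saa3 by 1.80. The number of list members called higher was 1 without KO replicate 2, 0 without KO replicate 3, WT replicate 2 or WT replicate 3, and 44 without WT replicate 1.

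Markers of other cells were read beside these values. Among the 7 markers of the leukaemic myeloid cells, Mpo, the myeloperoxidase gene, was called higher (1017.6 to 2311.4 TPM in KO, 19.4 to 127.6 TPM in WT; log2 fold change 4.84, limma adjusted p = 0.015) and set the list's sum of 1394.8 to 2795.6 TPM in KO and 398.3 to 494.8 TPM in WT. Of 6 megakaryocyte markers, Pf4 and Gp1bb were called higher, and the sum was 25.3 to 52.6 TPM in KO and 7.7 to 15.2 TPM in WT. Pf4 was at 0.1 to 0.3 TPM in WT and passed the filter through its KO values. The 4 endothelial markers summed to 63.9 to 67.7 TPM in KO and 60.8 to 79.1 TPM in WT, nearly all Pecam1, with Kdr and Tek at 0 in all 6 libraries. Cdh5, the gene of the endothelial cadherin, was at 0.5, 1.5 and 1.3 TPM in KO and at 0 in all 3 WT libraries. The 5 epithelial markers summed to 1.1 to 2.1 TPM in KO and 0.0 to 0.2 TPM in WT, with Krt5 and Krt14 at 0. The 4 T and NK cell markers summed to 0.2 to 0.5 TPM in KO and 0.0 to 0.1 TPM in WT. The 3 trophoblast and germ cell markers summed to 0.3 to 0.5 TPM in KO and 0.9 to 1.7 TPM in WT, all of it Ddx4. The part of such cells in the serpin values was not tested.

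**Figure D5:**
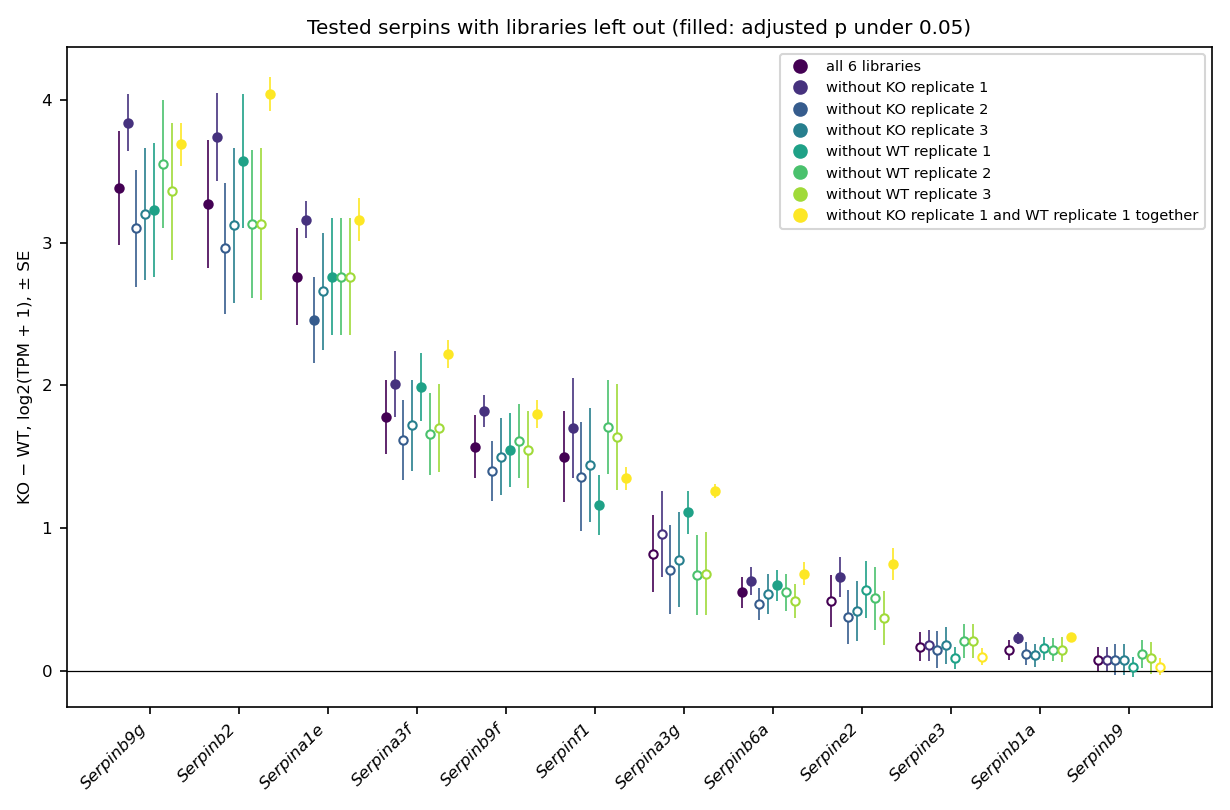
Difference KO minus WT on the log2(TPM + 1) scale, with SE, for the 12 tested serpins, with all 6 libraries and with the named libraries left out; filled points have a limma adjusted p under 0.05. All points lie above 0 (after quantile normalization, which is not drawn, Serpinb9 was at −0.28 and Serpine3 at −0.29), and no point is filled without KO replicate 3, WT replicate 2 or WT replicate 3.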

How the data were processed

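RNA was measured by sequencing of stranded poly(A) libraries with paired reads, per the labels' protocols. The submitters' processing notes list featureCounts 1.6.2, STAR 2.6.1e, Trim Galore 0.4.2 and cutadapt 1.9.1, and the mm10 build. Not given in the sources used here were the annotation, the strand setting and the step from counts to TPM. The authors deposited TPM per gene symbol, rounded to 1 decimal and summing to 999924.0 to 999934.9 per library. TPM keeps no depth, so no counting error is given, and since values share 1 total, more of one transcript means less of the rest.

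Libraries were grouped by the genotype in the labels. The 13575 genes that reached 1 TPM in 3 or more libraries were compared on log2(TPM + 1), KO minus WT. The fit used R 4.3.3 and limma 3.58.1, had genotype alone as a term and let the variance follow the mean. Tests were two-sided, with Benjamini-Hochberg adjustment across these genes and a threshold of 0.05. Fold changes on this scale understate changes of weakly expressed genes. The code was tested on simulated data. The alternatives were other pseudocounts, filters and scalings, libraries left out and a replicate block.

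Library values are given for serpins that were called, averaged at least 10 TPM in a group, or were at 0 in WT with a KO mean of at least 1 TPM. From each list of other genes, up to 4 called genes with the smallest adjusted p are named. Some genes that these rules cover are not reported here. The members and lists were chosen with earlier results of these data known. Shared sequence was counted as 100-base windows of the longest GENCODE M21 transcript found in another gene's transcripts. Positions and promoters are those of RefSeq for GRCm38.p6.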

Additional observations from a re-analysis of the deposited data

How the results depend on the processing

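The 12 tested serpins had 0 members called lower under each of the 15 alternatives. The 7 called higher were 18 of 42 tested without a filter, 3 of 6 tested with a mean of at least 5 TPM, and 0 to 9 with 1 library left out. Over all genes, 2730 of 22884 were called higher without a filter and 883 of 10041 with a mean of at least 5 TPM. With 1 library left out, 0 to 2927 were. Some of the 18, such as Serpina3i at 0.1 TPM in each KO library, were at 0 in all WT libraries, where no other direction is possible. The median log2 fold change of the 12 tested serpins, 1.16, became 0.66 with a pseudocount of 5 and lay between 1.04 and 1.33 with 1 library left out. Over the 42 tested without a filter it was 0.25. All called genes numbered 2575, 1578 with a mean of at least 5 TPM, 0 to 4850 with 1 library left out, and 7569 without KO replicate 1 and WT replicate 1. List members called higher were 24, against 15 with a mean of at least 5 TPM, 52 without both replicates 1 and 0 to 44 with 1 library left out; those called lower were 0, against 1 after median-ratio scaling, 2 after quantile normalization, 3 without both replicates 1 and 0 to 1 with 1 library left out. The calls split into 1745 higher and 830 lower, and into 1346 and 1722 after quantile normalization. Of the 10 serpins at 0 in WT and above 0 in every KO library, 3 were left at 0.3 TPM, and 10 to 14 were found with 1 library left out. After quantile normalization Serpinb9 was at −0.28 and Serpine3 at −0.29, neither called. The causes were not tested. No pairing by replicate number was seen: same-numbered deviations from the group means correlated at −0.199, −0.145 and −0.164, and no library correlated best with its own number. With 3 libraries per group these correlations depend on each other, so they cannot exclude a pairing. With the replicate block limma called 333 genes, 4 serpins (Serpinf1, Serpina1e, Serpinb9f and Serpinb9g) and 6 list members higher. Depth is unknown, so values of 0.1 to 0.3 TPM carry no stated counting error.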
